A study of Mus musculus with 6 samples.

Results

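A set of 30 genes that make cholesterol, sense it or move it were followed in the mouse cerebellum at postnatal day 18, in 3 libraries from wild-type mice (WT) and 3 from mice carrying a knockout of the remote enhancer of Atoh7 (KO). The genes were chosen by symbol: 18 enzymes of the synthesis pathway, 5 genes of the SREBP pathway that sets the activity of those enzymes, and 7 genes of efflux, oxysterol formation and intracellular transport. All 30 symbols were found among the 24411 genes in the files, and all 30 were among the 15519 genes that passed the filter on low counts. The list does not hold every enzyme of the pathway. Atoh7 encodes a proneural transcription factor needed for retinal ganglion cells to form, and the series title concerns a regulatory module in the genesis of those cells. The labels call the replicates of each genotype independent but do not say whether a replicate is 1 animal. Strain, sex, and whether both alleles carry the deletion, are not stated in the labels.

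Every sample carries retina as its tissue entry, but cerebellum is what the design text and the extraction protocol name. Cerebellar markers were abundant, with 1797 to 10938 reads of the granule cell receptor gene Gabra6 and 1906 to 8079 reads of the Purkinje cell gene Pcp2 in each library. Crx, a photoreceptor transcription factor gene, had 0 reads in every library. Reads assigned to genes numbered 26812996 to 34438262 in 5 libraries and 16340132 in WT replicate 3, in which Rn45s, a ribosomal RNA gene, took 63.2% of them (1.28% to 3.04% in the others). Reads outside genes, introns included, made up 32.0% to 38.5% of WT and 17.1% to 17.6% of KO libraries. The 30 sterol genes took 87926 to 118012 reads in the other 5 libraries and 15968 in WT replicate 3, where the least covered member, Tm7sf2, had 80 reads. WT replicate 1 was the only library with more than 10 reads of Xist, a gene expressed in females, at 31134.

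Cholesterol does not pass from blood lipoproteins into the brain, so neural cells make their own, and demand is high while myelin is being laid down. The pathway runs from acetyl-CoA through mevalonate and farnesyl diphosphate to squalene and lanosterol, and from there to cholesterol. When sterols are scarce, the escort protein SCAP carries the SREBP transcription factors from the endoplasmic reticulum to the Golgi, where they are cut and released to switch on the synthesis genes. INSIG proteins hold SCAP back when sterols are plentiful. Surplus cholesterol leaves cells through the ABC transporters ABCA1 and ABCG1 or is turned into 24S-hydroxycholesterol by CYP46A1, and NPC2 and NPC1 hand cholesterol out of the lysosome.

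Promoter sequence was examined because SREBP proteins bind sterol regulatory elements beside NF-Y, the factor that binds CCAAT boxes. RefSeq promoter windows of 300 bases (250 before and 50 after a start, GRCm38.p6) were matched by symbol for 24 of the 30 members. Both strands were searched, and a gene counted if any of its windows matched (5 members had more than 1 start). The letters TCACNCCAC, a core of the sterol regulatory element, were found at 1 of 24 members (4.17%), Hmgcs1, against 1.42% of 11610 tested genes with a window. CCAAT was found at 20 of 24 members (83.3%) against 42.3% of tested genes, with 14 of 15 synthesis genes holding it (93.3%). GGGCGG, the GC box, was found at 22 of 24 members (91.7%) against 66.8% of tested genes. Counted per window, CCAAT was in 21 of 32 member windows (65.6%), against 37.4% of all 32851 windows, of tested genes or not. GGGCGG was in 26 of the 32 (81.25%), against 35.7% of all windows. These are matches of letters and were not tested for binding. The stretches below lie upstream of the RefSeq start and clear of exons in the GENCODE annotation. They show Hmgcs1, the only member with the element core, and the promoters of the 5 members with a window that were higher in KO. Sequences run 5′ to 3′ along the gene, and capitals mark TCACNCCAC or CCAAT on either strand (CCAAT reads ATTGG on the other strand):
Hmgcs1, chr13:119690101-119690350, + strand: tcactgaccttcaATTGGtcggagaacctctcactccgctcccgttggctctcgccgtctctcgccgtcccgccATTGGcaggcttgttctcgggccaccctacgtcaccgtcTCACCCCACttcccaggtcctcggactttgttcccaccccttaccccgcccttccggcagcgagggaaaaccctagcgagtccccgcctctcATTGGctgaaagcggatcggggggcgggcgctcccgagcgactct
Acat2, chr17:12960748-12960975, - strand: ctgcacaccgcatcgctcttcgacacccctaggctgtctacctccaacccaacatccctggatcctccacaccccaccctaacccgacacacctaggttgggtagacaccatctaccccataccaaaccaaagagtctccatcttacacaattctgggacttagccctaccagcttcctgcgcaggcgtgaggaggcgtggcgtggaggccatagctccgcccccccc
Lss, chr10:76531355-76531587, + strand: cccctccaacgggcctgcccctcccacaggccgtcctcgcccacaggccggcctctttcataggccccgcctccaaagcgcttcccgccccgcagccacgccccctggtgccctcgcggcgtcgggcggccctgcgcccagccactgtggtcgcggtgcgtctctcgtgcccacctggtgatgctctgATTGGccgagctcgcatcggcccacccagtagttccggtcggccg
Hsd17b7, chr1:169969242-169969408, - strand: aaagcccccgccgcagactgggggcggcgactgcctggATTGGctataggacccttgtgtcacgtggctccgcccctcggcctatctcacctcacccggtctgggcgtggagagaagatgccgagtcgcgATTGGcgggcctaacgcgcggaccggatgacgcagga
Insig1, chr5:28071162-28071362, + strand: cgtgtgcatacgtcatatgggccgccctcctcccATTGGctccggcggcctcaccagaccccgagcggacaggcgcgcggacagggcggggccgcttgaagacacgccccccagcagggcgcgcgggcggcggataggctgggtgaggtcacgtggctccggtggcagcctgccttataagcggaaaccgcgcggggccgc
Npc2, chr12:84773153-84773250, - strand: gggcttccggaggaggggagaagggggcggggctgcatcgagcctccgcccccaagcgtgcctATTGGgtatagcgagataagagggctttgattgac
The Hmgcs1 stretch holds 1 element core and 3 CCAAT boxes. Lss, Insig1 and Npc2 each show 1 CCAAT box, Hsd17b7 shows 2 and Acat2 shows 0.

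A group of 6 cholesterol genes was modestly higher in KO than in WT, and 0 were lower. By the quasi-likelihood test of edgeR (adjusted by Benjamini-Hochberg across every tested gene), 6 of 30 members rose (20%), 0 fell and 24 missed the threshold, where 16.7% of all tested genes changed, 6.43% of all tested genes rose and 10.2% fell. The 6 were the synthesis genes Acat2, Fdps, Lss and Hsd17b7, the SREBP pathway gene Insig1 and the lysosomal gene Npc2, at 1.21 to 1.30 fold. The median log2 fold change (KO minus WT) was 0.13 over the 30 members and −0.01 over all tested genes. Every KO library lay above every WT library for 14 members (46.7%) and below for 0, against 19.0% and 20.5% of all tested genes (39.4% in either direction). The log2 fold change was above 0 for 26 of 30 members (86.7%), against 49.2% of all tested genes. The members were chosen with earlier results of these data known, so these shares are descriptions and not a test of the list.

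With RLE size factors 7 members rose, where 7.09% of all tested genes did, and with DESeq2 also 7, where 7.67% did. The number of calls changed when a library was left out, for the members and for all tested genes alike, while the members' median stayed between 0.11 and 0.16. In turn, 3, 3 and 8 members rose without WT replicates 1, 2 and 3 and 4, 1 and 0 without KO replicates 1, 2 and 3, where 6.16%, 2.59%, 10.2%, 2.27%, 1.88% and 1.56% of all tested genes rose. With a read assignment covariate (log2 of reads outside genes over gene reads without Rn45s, added after seeing the data), 1 member rose, Pmvk, against 3.61% of all tested genes, and the members' median was 0.04.

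**Figure D1:**
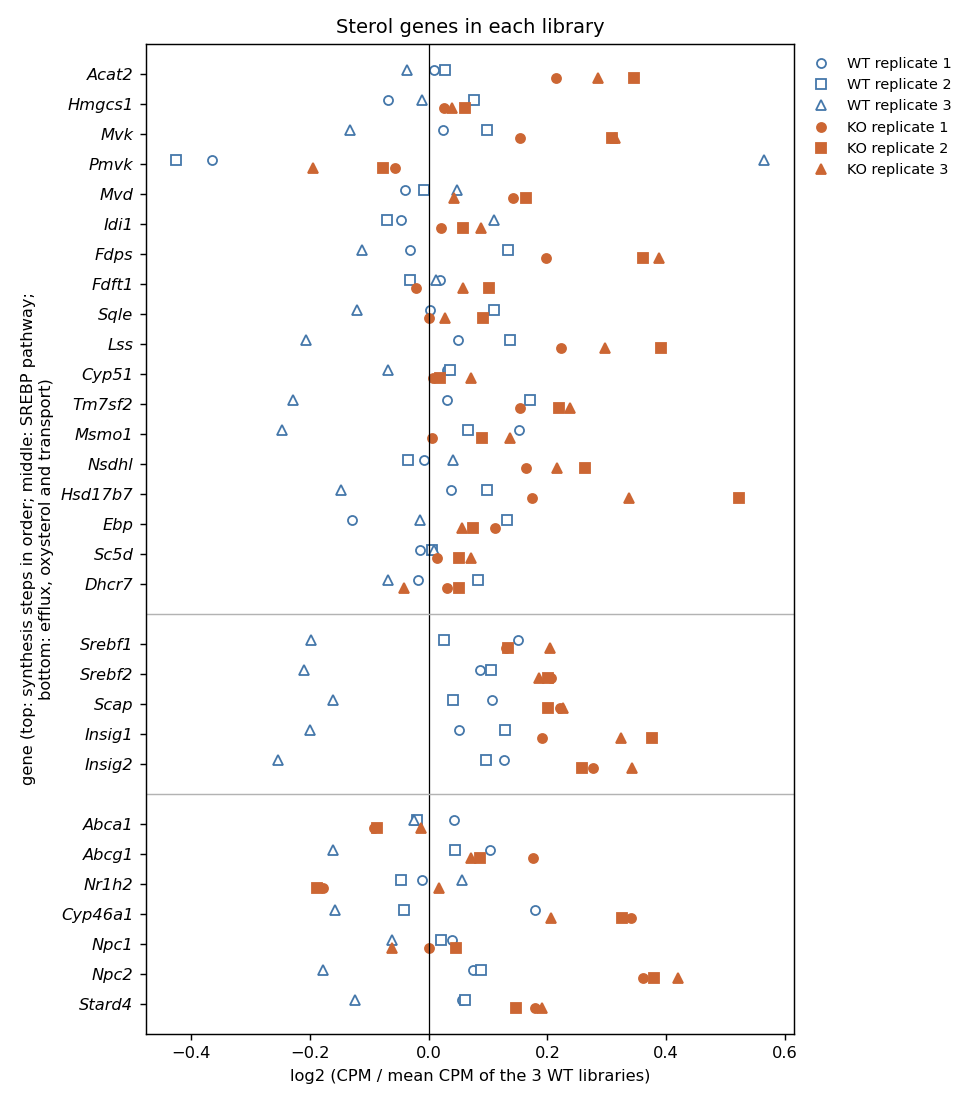
Level of each sterol gene in each library, as the log2 ratio of its TMM-scaled counts per 1000000 reads (CPM) to the mean of the 3 WT libraries (x axis), with genes on the y axis in pathway order. Open blue symbols are WT and filled orange symbols KO, with 1 symbol shape per replicate number. In Npc2 and Acat2 the KO symbols lie to the right of all WT symbols, in Hmgcs1 and Npc1 they overlap, and WT replicate 3 lies far right in Pmvk and far left in the 5 SREBP pathway genes.

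The steps from acetyl-CoA to farnesyl diphosphate had 2 of 7 genes higher and 0 lower, with a median log2 fold change of 0.12. Among all tested genes, 6.43% rose and 10.2% fell. Acat2, the cytosolic thiolase that joins acetyl-CoA units, was measured at 45.9, 46.5 and 44.5 CPM (TMM-scaled reads per 1000000) in WT replicates 1 to 3 and at 52.9, 58.0 and 55.6 CPM in KO replicates 1 to 3. All KO libraries were above all WT libraries, and the WT libraries differed little among themselves. It rose by a log2 of 0.28 (SE 0.06, adjusted p = 0.0160). Acat3, a near copy of this gene, had at most 21 reads in any library.

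Hmgcs1, the HMG-CoA synthase, had 646, 715 and 672 CPM in WT and 690, 707 and 697 CPM in KO. The KO libraries fell inside the WT range, and the log2 fold change was 0.04 (SE 0.06, adjusted p = 0.686). This enzyme took 24.5% to 27.2% of all reads of the 30 members in each library. The ratio of Acat2 to Hmgcs1 reads, into which no scaling between libraries enters, was 0.0710, 0.0650 and 0.0661 in WT and 0.0766, 0.0819 and 0.0798 in KO. WT and KO were separate (exact permutation test, two-sided, p = 0.1, the least possible with 3 libraries each). This ratio and 7 others were chosen after the values were seen. Of those with a gene that rose, Fdps to Idi1 and Insig1 to Srebf2 overlapped between the genotypes (two-sided exact permutation p = 0.2 and 0.3).

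The kinases and the decarboxylase of the mevalonate part followed. Mvk, mevalonate kinase, had 25.7, 27.1 and 23.1 CPM in WT and 28.2, 31.3 and 31.5 CPM in KO, groups that did not overlap, at a log2 of 0.24 (SE 0.08) that missed the threshold (adjusted p = 0.0702). Pmvk, phosphomevalonate kinase, had 19.1 and 18.3 CPM in WT replicates 1 and 2, 36.4 CPM in WT replicate 3, and 21.5 to 23.6 CPM in KO. The third WT library thus stood apart from the other 5. With it the log2 fold change was −0.01 (SE 0.25, adjusted p = 0.991), and without it Pmvk was higher in KO by 0.29 (SE 0.08, adjusted p = 0.0173). Mvd, the decarboxylase that makes isopentenyl diphosphate, was at 28.3 ± 0.868 CPM in WT against 30.7 ± 1.35 CPM in KO (SD, n = 3 each). Idi1, the isomerase of that product, was at 29.9 ± 2.06 and 31.0 ± 0.728 CPM. Neither passed the test.

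Fdps, which builds farnesyl diphosphate, had 53.5, 59.9 and 50.5 CPM in WT and 62.7, 70.1 and 71.5 CPM in KO. The groups did not overlap, though KO replicate 1 stood closer to WT replicate 2 than to the other KO libraries. The gene rose by a log2 of 0.31 (SE 0.08, adjusted p = 0.0285). It lies at chr3:89093588-89101959 (GRCm38). On the same strand, its longest exon overlap with the annotated gene Gm43738 is 197 bases. Gm43738 is not among the genes in the files, and how reads there were counted is uncertain.

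From squalene to lanosterol, 1 of 3 genes rose, where 6.43% of all tested genes did. Fdft1, squalene synthase, had 75.7, 73.1 and 75.3 CPM in WT and 73.6, 80.1 and 77.8 CPM in KO. Sqle, the squalene epoxidase, had 122, 131 and 112 CPM in WT and 122, 130 and 124 CPM in KO. Both overlapped between the genotypes, at a log2 of 0.05 (SE 0.06) and 0.03 (SE 0.07). Lss, the cyclase that forms lanosterol, had 83.8, 89.0 and 70.2 CPM in WT and 94.6, 106 and 99.5 CPM in KO. Its KO libraries were all higher, and WT replicate 3 was the lowest. Lss rose by a log2 of 0.29 (SE 0.09, adjusted p = 0.0457), and by 0.21 without WT replicate 3. The ratio of Lss to Sqle reads was 0.688, 0.679 and 0.627 in WT and 0.777, 0.820 and 0.802 in KO (two-sided exact permutation p = 0.1). This ratio was also chosen after the values were seen, and it draws on the same Lss reads as the call. Lss is the only member on chromosome 10, the chromosome of Atoh7, and starts 13.4 Mb from that gene (GRCm38).

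From lanosterol to cholesterol, 1 of 8 genes rose, where 6.43% of all tested genes did, with a median log2 fold change of 0.07. Hsd17b7, a 3-ketosteroid reductase, had 43.2, 45.0 and 38.0 CPM in WT and 47.4, 60.4 and 53.1 CPM in KO. The groups did not overlap. On the log2 scale its KO libraries spread more (SD 0.17) than those of any other member that rose. The log2 fold change was 0.34 (SE 0.10, adjusted p = 0.0392). Nsdhl, a decarboxylating sterol dehydrogenase that acts just before it, had 29.2, 28.7 and 30.2 CPM in WT and 32.9, 35.2 and 34.1 CPM in KO. Its groups did not overlap, and at a log2 of 0.22 (SE 0.07) it narrowly missed the threshold (adjusted p = 0.0510). Nsdhl and Ebp are X-linked, and WT replicate 1, the library with the Xist reads, lay within the other WT libraries for Nsdhl and below them for Ebp, at 25.8 against 30.9 and 27.9 CPM.

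The other 6 late enzymes differed little. Cyp51, the lanosterol demethylase, was at 183 ± 7.40 CPM in WT against 187 ± 4.52 CPM in KO (SD, n = 3 each). Msmo1, the C4 methylsterol oxidase, was at 109 ± 15.3 and 116 ± 5.28 CPM, with WT replicate 3 at 92.2 CPM. Sc5d, a sterol desaturase, had 91.0 to 92.5 CPM in WT and 92.8 to 96.6 CPM in KO. These ranges did not overlap, yet the step between them was only 0.05 on the log2 scale (SE 0.06, adjusted p = 0.624). Dhcr7, the reductase that yields cholesterol and that is lost in Smith-Lemli-Opitz syndrome, was at 60.3 ± 3.26 and 60.9 ± 2.04 CPM. Tm7sf2, a sterol C14 reductase, and Ebp, a sterol isomerase, had log2 fold changes of 0.17 (SE 0.10) and 0.08 (SE 0.08). On the same strand, the longest exon overlap of Tm7sf2 with Vps51 is 532 bases. Differences between steps of the pathway were not tested.

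**Figure D2:**
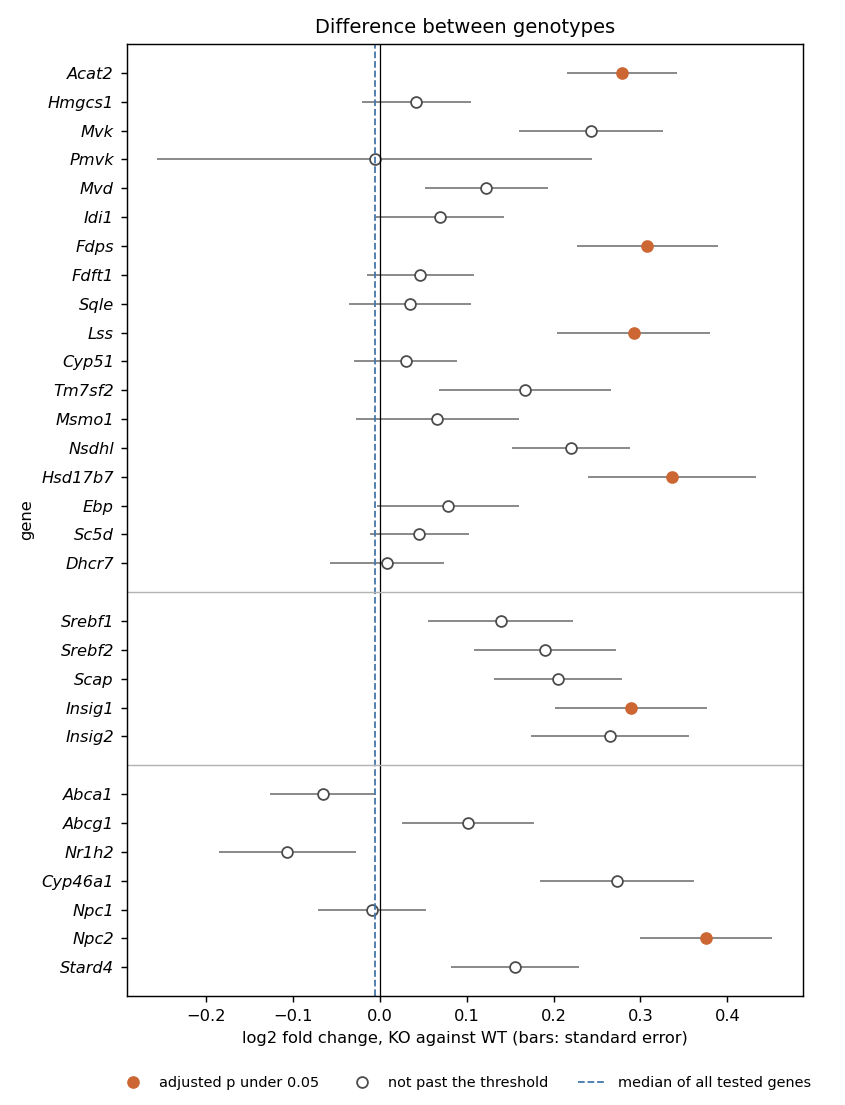
Log2 fold change of each sterol gene, KO against WT (x axis, bars are standard errors), with genes on the y axis in pathway order. Filled orange points passed the threshold, open points did not, and the dashed line is the median of all tested genes (−0.01). The filled points lie between 0.28 and 0.38, and Pmvk has the widest bar (SE 0.25).

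The SREBP pathway had 1 of 5 genes higher, where 6.43% of all tested genes rose, and 0 lower (median log2 fold change 0.20). Every KO library lay above every WT library for 4 of the 5, against 19.0% of all tested genes. Insig1, the retention protein that is itself an SREBP target, had 112, 118 and 94.1 CPM in WT and 123, 140 and 135 CPM in KO. All KO libraries were higher, with KO replicate 1 close to WT replicate 2. The gene rose by a log2 of 0.29 (SE 0.09, adjusted p = 0.0473). Insig2, its paralog, had 37.5, 36.7 and 28.8 CPM in WT and 41.7, 41.1 and 43.6 CPM in KO, a log2 of 0.27 (SE 0.09, adjusted p = 0.0715).

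Srebf2, which encodes the SREBP most tied to cholesterol synthesis, had 181, 184 and 148 CPM in WT and 197, 196 and 194 CPM in KO. The KO libraries were nearly equal and above all WT libraries, at a log2 of 0.19 (SE 0.08, adjusted p = 0.136). Srebf1, tied more to fatty acid synthesis, had 58.0, 53.2 and 45.6 CPM in WT and 57.2, 57.3 and 60.2 CPM in KO, groups that overlapped. The ratio of Srebf2 to Srebf1 reads was 3.13 to 3.45 in WT and 3.23 to 3.45 in KO. Scap, the escort gene, had 82.5, 78.7 and 68.5 CPM in WT and 89.2, 87.98 and 89.5 CPM in KO, a log2 of 0.20 (SE 0.07, adjusted p = 0.0821).

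In all 5 of these genes WT replicate 3 was the lowest of the 6 libraries. Over the 30 members it was the lowest in 19 (63.3%), against 32.5% of all tested genes. Without WT replicate 3, Insig1 and Insig2 both passed, and every KO library lay above WT replicates 1 and 2 in 17 members, against 25.5% of all tested genes. With the read assignment covariate, the log2 fold change was 0.05 for Insig1, −0.01 for Insig2, −0.06 for Srebf2 and −0.09 for Srebf1. The covariate was higher in every WT library than in every KO library, and highest in WT replicate 3. With 6 libraries, its part and that of genotype could not be cleanly told apart.

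Efflux, oxysterol and transport genes had 1 of 7 higher, 0 lower and a median log2 fold change of 0.10. Among all tested genes, 6.43% rose and 10.2% fell. Npc2, the soluble lysosomal protein that binds cholesterol, had 80.5, 81.3 and 67.6 CPM in WT and 98.3, 99.5 and 102 CPM in KO. The KO libraries were tightly grouped and well above all WT libraries. Npc2 rose 1.30 fold (log2 0.38, SE 0.08, adjusted p = 0.00957), the highest fold change of the 30 members. Its call was kept in 13 of 15 alternatives, and was lost without KO replicate 3 (0.36, adjusted p = 0.0564) and with the read assignment covariate (0.17, adjusted p = 0.215).

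Npc1, the membrane partner that takes cholesterol from NPC2 and whose loss leads to Purkinje cell death in mice, had 104, 103 and 97.2 CPM in WT and 101, 105 and 97.1 CPM in KO. The genotypes overlapped throughout, and the log2 fold change was −0.01 (SE 0.06, adjusted p = 0.941). The ratio of Npc2 to Npc1 reads was 0.773, 0.791 and 0.695 in WT and 0.970, 0.951 and 1.05 in KO. Its groups did not overlap, a log2 difference of 0.40 (two-sided exact permutation p = 0.1, the smallest possible). This ratio was among those chosen after the values were seen, and it draws on the same Npc2 reads as the call. Stard4, a soluble sterol carrier, was at 27.4 ± 1.96 CPM in WT against 30.8 ± 0.481 CPM in KO (SD, n = 3 each) and did not pass (adjusted p = 0.171 by edgeR).

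Cyp46a1, the neuronal cholesterol 24-hydroxylase that is strong in Purkinje cells, had 37.4, 32.1 and 29.6 CPM in WT and 41.8, 41.4 and 38.1 CPM in KO. The groups did not overlap by a narrow margin, and the log2 fold change of 0.27 (SE 0.09) did not pass (adjusted p = 0.0610). The efflux transporter gene Abca1 had 96.1, 92.1 and 91.7 CPM in WT and 87.6, 87.8 and 92.5 CPM in KO, a log2 of −0.07 (SE 0.06). Abcg1, the second efflux transporter, had 86.3, 82.9 and 71.9 CPM in WT and 90.8, 85.3 and 84.5 CPM in KO, a log2 of 0.10 (SE 0.08). Nr1h2, which encodes LXR beta, the oxysterol receptor that switches on both transporters, had 34.0, 33.2 and 35.6 CPM in WT and 30.3, 30.1 and 34.7 CPM in KO, a log2 of −0.11 (SE 0.08). All 3 overlapped between the genotypes.

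**Figure D3:**
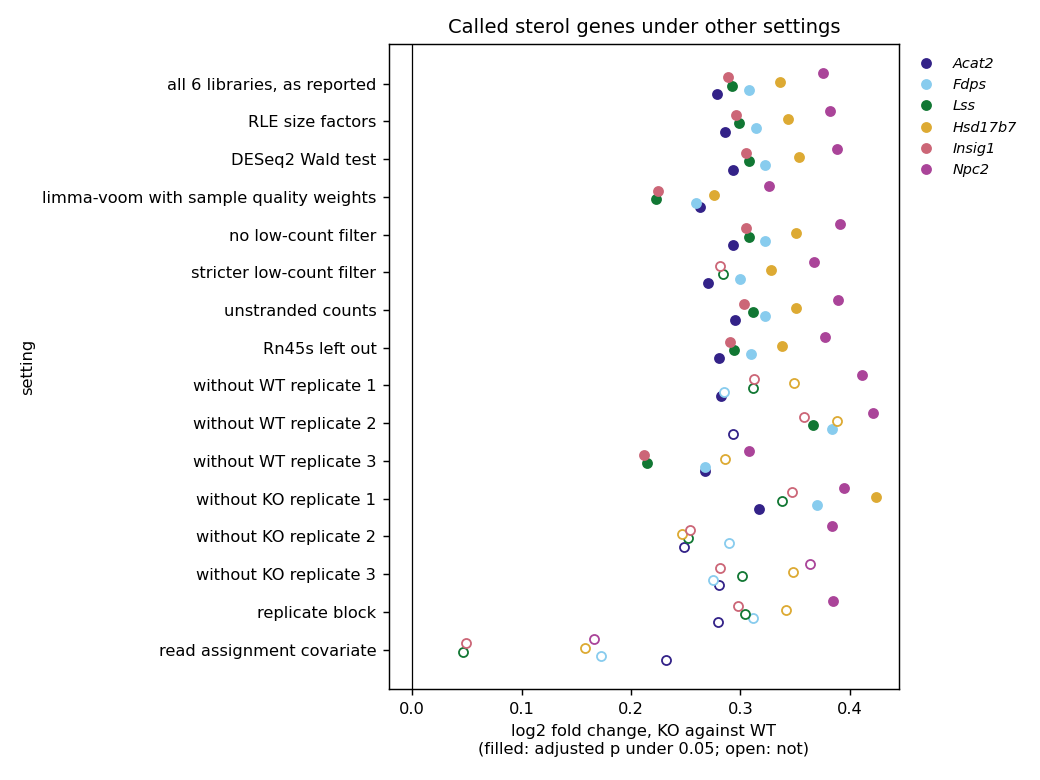
Log2 fold change (x axis) of the 6 members that rose, under the reported fit and 15 alternatives (y axis), with 1 colour per gene, filled where adjusted p was under 0.05. All values lie above 0, from 0.05 (Lss, read assignment covariate) to 0.42 (Hsd17b7, without KO replicate 1), and no point is filled without KO replicate 3.

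The 6 higher members held up unequally. Acat2 and Fdps kept their calls in 10 of 15 alternatives each, Lss and Hsd17b7 in 8 each and Insig1 in 7. Fewer calls were kept in the 6 alternatives that left out a library. There Npc2 kept its call in 5, Acat2 and Fdps in 3 each, Lss in 2, and Hsd17b7 and Insig1 in 1 each. The sign of all 6 was positive in all 15 alternatives. With the replicate number as a block, Npc2 alone passed (0.39, adjusted p = 0.0418).

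Levels of different genes were compared as CPM per kilobase of exon. Hmgcs1 stood first in WT at 148 ± 7.56 CPM per kilobase (SD, n = 3), with no overlap with any other member. Cyp51 (41.5 ± 1.68) and Insig1 (34.9 ± 4.04) followed and were told apart from each other and from the next, Srebf2 (23.8 ± 2.81), by libraries that did not overlap. Srebf2 and Sqle (21.9 ± 1.74) overlapped. From Mvd at 15.2 down to Hsd17b7 at 8.24 CPM per kilobase, no member was separated from its next neighbour in the order. Stard4 (4.90 ± 0.351) and Tm7sf2 (3.30 ± 0.454) stood last and apart. In KO, Hmgcs1 also stood first (152 CPM per kilobase) and Tm7sf2 last (3.80). Npc2 was the 12th in WT and the 9th in KO. With the length of the longest transcript in place of all exons, Hmgcs1, Cyp51 and Insig1 kept the first 3 ranks and Stard4 and Tm7sf2 the last, while Msmo1 moved from rank 8 to 4 and Dhcr7 from 16 to 8.

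**Figure D4:**
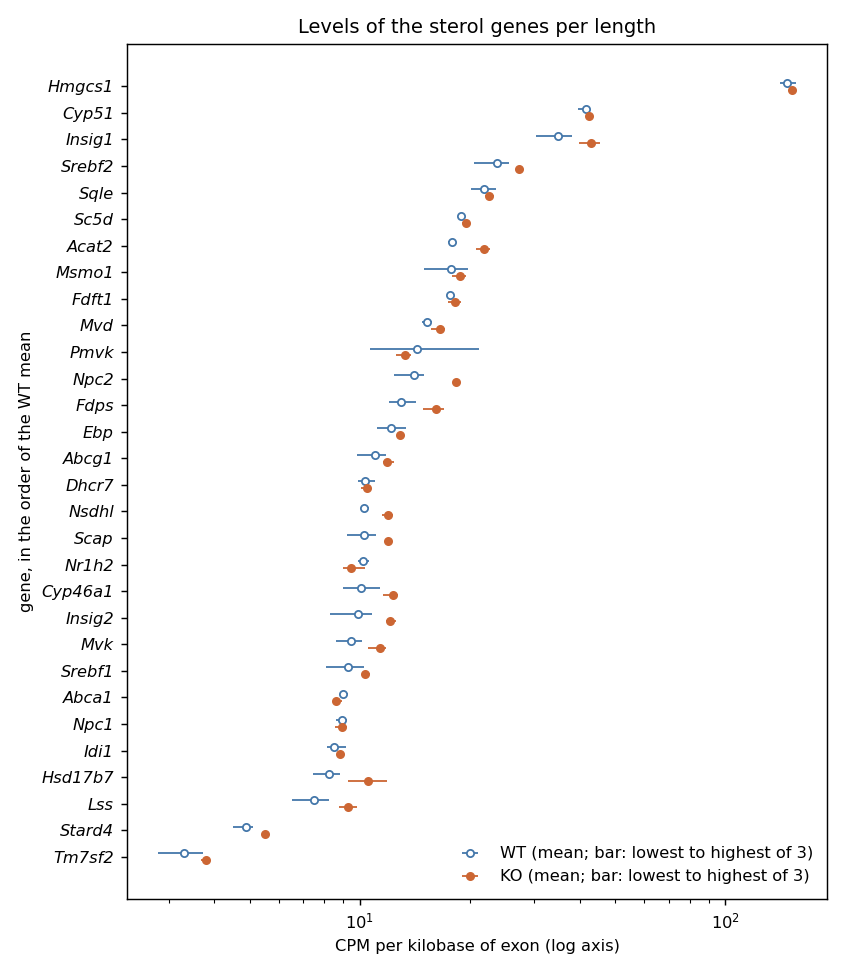
Level of each sterol gene as CPM per kilobase of exon (x axis, log scale) in WT (open blue) and KO (filled orange), with genes on the y axis in the order of the WT mean. Points are means of 3 libraries and bars run from the lowest to the highest library. Hmgcs1 is far to the right of all others, at 148 in WT and 152 in KO, and the long WT bar of Pmvk comes from WT replicate 3.

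The spread within genotypes varied among the members. The median over the 30 members of the SD of log2 CPM was 0.12 in WT and 0.05 in KO, against 0.15 and 0.09 over all tested genes. The most variable member in WT was Pmvk (SD 0.55) and the least was Sc5d (SD 0.011). Deviations of the synthesis genes from the genotype mean differed by library. In KO replicate 1 the mean deviation over the 18 synthesis genes was −0.04 on the log2 scale, with 4 of 18 above the KO mean. In KO replicate 2 it was 0.04, with 16 of 18 above. In KO replicate 3, 10 of 18 lay above, and in WT replicates 1 to 3, 9, 13 and 6 did. Over all tested genes the mean deviation was −0.0049 and 0.0014 in KO replicates 1 and 2. These genes share the libraries and their scaling, so this describes 6 libraries only.

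A wider set of 83 genes linked to the pathway, listed with earlier results of these data known, had 9 of 81 tested genes higher, 8 lower and 64 that missed the threshold (median log2 fold change 0.04). Over all tested genes 6.43% rose and 10.2% fell, so the share that fell is near that background, and the counts below are descriptions. Among SREBP targets of fatty acid synthesis, 4 of 15 rose and 1 fell. The desaturase gene Scd1 rose from 321 ± 14.8 to 430 ± 43.7 CPM (log2 0.42, SE 0.08; SD, n = 3 each), Elovl5, a fatty acid elongase, by 0.26 (SE 0.07) and Fads2, a desaturase of polyunsaturated fatty acids, by 0.20 (SE 0.06). Pnpla3, a lipid droplet protein, fell by 0.90 on the log2 scale (SE 0.11).

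Of 12 genes on the branches that use isoprenoids, 2 rose and 2 fell. Nus1, a subunit of the dolichol-making prenyltransferase (0.30, SE 0.07), and Icmt, which methylates prenylated proteins (0.44, SE 0.11), rose. Pdss1, which makes the tail of coenzyme Q, fell from 9.53 ± 0.608 to 5.24 ± 0.638 CPM (log2 −0.84, SE 0.12; SD, n = 3 each). Rabggtb, a subunit of the Rab prenyltransferase (−0.30, SE 0.08), also fell. Exons pooled over all its annotated transcripts overlap the small nucleolar RNA genes Snord45b and Snord45c on the same strand, so reads there are uncertain.

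Of 12 genes of sterol sensing and SREBP processing, 0 rose in edgeR's test, with 3 at an unadjusted p under 0.05 in either direction, and 1 fell: Erlin1, a sterol-sensing protein of the endoplasmic reticulum (−0.40, SE 0.10). Of 10 LXR and ABC transporter genes, Rxra, the partner receptor of LXR, rose by 0.40 (SE 0.11), while the transporter genes Abca8b (−0.62, SE 0.07) and Abca8a (−0.57, SE 0.16) fell. Single genes passed in the remaining groups. Nceh1, a cholesteryl ester hydrolase (0.27, SE 0.07), and Scarb2, a lysosomal membrane protein (0.27, SE 0.08), rose. Gramd1a, which carries cholesterol from the plasma membrane to the endoplasmic reticulum (−0.43, SE 0.07), and Cyp27a1, the sterol 27-hydroxylase (−0.40, SE 0.11), fell. Adjusted p values of the genes named in these 3 paragraphs ran from 4.12e-04 (Abca8b) to 0.0419 (Fads2) by edgeR.

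Levels of cell type markers differed between the genotypes beside these results, and in bulk tissue fewer cells of a type and less RNA per cell cannot be told apart. The summed level of 10 oligodendrocyte markers was 24259 to 28166 CPM in WT and 30873 to 32871 CPM in KO, although 0 of the 10 passed edgeR's test (4 at an unadjusted p under 0.05). The summed level of 8 markers of Bergmann glia and astrocytes was 5473 to 5656 CPM in WT and 6121 to 6693 CPM in KO, where 2 rose (Slc1a2 and Gja1) and 1 fell (Fabp7). Slc1a2 alone went from 2755 to 3589 CPM, and the list's median log2 fold change was 0.03, with 3 of 8 below 0. The summed level of 6 vessel markers was 176 to 199 CPM in WT and 124 to 125 CPM in KO, where 5 fell, and that of 6 meningeal fibroblast markers was 258 to 399 and 179 to 195 CPM, where 5 fell. Granule neuron markers summed to 1072 to 1394 CPM in WT and 867 to 1191 CPM in KO (1 of 6 fell, Gabra6), and Purkinje cell markers to 2963 to 3602 and 3239 to 4143 CPM (1 of 6 rose, Calb1). Microglial markers summed to 121 to 135 and 136 to 141 CPM (1 of 6 rose, Cx3cr1), and choroid plexus markers to 2009 to 2315 and 1848 to 2258 CPM (0 of 6 passed edgeR's test, 2 at an unadjusted p under 0.05). Of 8 retina markers 2 had enough reads to be tested, and 1 of these fell, Rcvrn (log2 −2.42), which had at most 15 reads in any library. The part of these differences, of the reads outside genes and of WT replicate 3 in the members' changes was not tested.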

How the data were processed

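Bulk RNA sequencing of 6 libraries was used. Each deposited file gives raw counts per gene, in the layout of STAR's gene counts. Trimmomatic, STAR and mm10 are named per the submitters' processing notes. Versions, annotation and strand setting are not stated there. Of the stranded count columns the heavier was used, and STAR's summary lines stayed out of library sizes (reads outside genes 17.1% to 38.5% of a library). Groups and replicate numbers came from the titles.

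Genes were filtered with filterByExpr (15519 kept, 8892 removed), scaled by TMM and tested with edgeR 4.0.16 in R 4.3.3 (quasi-likelihood, robust), adjusted by Benjamini-Hochberg, threshold 0.05. SE is approximate, the size of the log2 fold change over the root of its F. CPM used TMM-scaled library sizes, and log2 CPM a prior count of 2. The test was checked on simulated counts. Alternatives were DESeq2 1.42.0, limma 3.58.1 and the settings in the closing section. Depth was 16340132 to 34438262 gene reads, and 3 reads equal 0.0871 to 0.184 CPM without TMM scaling. P-values measure the spread between these libraries only. Positions and exon lengths came from GENCODE M21 (GRCm38, which mm10 denotes), promoters from RefSeq (GRCm38.p6).

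The members and gene lists were chosen with earlier results of these data known. All members are named, with each library's values for those past the threshold and for contrasting members, as are up to 4 genes of each wider list and up to 3 of each marker list with the smallest p. The nuclear receptor repeat was also searched, with 0 matches among members.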

Additional observations from a re-analysis of the deposited data

Results flagged for a closer look

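Opposite-strand reads entered only the alternative with unstranded counts. They were 0.764% to 0.908% of the reads at the 30 sterol genes in each library. At Fdft1, the squalene synthase gene, they were higher, as CPM, in every KO library than in every WT library, with a mean of 10.4 CPM in KO, from 410, 414 and 424 reads in KO replicates 1 to 3 and 322, 260 and 32 in WT replicates 1 to 3. The longest overlap of an exon of Ctsb, on the other strand, with an exon of Fdft1 is 774 bases. The difference was not tested.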

How the results depend on the processing

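The count of members higher in KO (6) was 10 with limma-voom and sample quality weights, 1 with the replicate number as a block (replicate block) and 1 with the read assignment covariate, and ran from 0 to 8 when a replicate was left out. The count of members lower was 0 in all 15 alternatives. All tested genes called numbered 2585, and 4092 with limma-voom, 1073 with the replicate block, 1422 with the covariate and from 1041 to 3719 without a replicate (3719 without WT replicate 3). The members' median log2 fold change (0.13) was 0.036 with the covariate and stayed above 0 in all 15 alternatives. The labels do not say whether a replicate number pairs a WT with a KO library. Deviations of same-numbered WT and KO libraries correlated at −0.18, −0.14 and −0.10 over all tested genes. With 3 libraries per genotype, each taken against its genotype mean, this cannot decide whether the numbers mark pairs.

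Signs turned for some members, near 0 in most settings but also for larger values with the covariate. Pmvk was at 0.00021 with RLE size factors, 0.24 with limma-voom, 0.0094 with no filter on low counts, 0.0073 with unstranded counts and 0.79 with the covariate, and from −0.19 to 0.29 without a replicate. Npc1 was at 0.0047 with DESeq2 and 0.0062 with no filter. With limma-voom, Sqle was at −0.012 and Dhcr7 at −0.027. With the covariate, Sqle was at −0.11, Cyp51 at −0.056, Tm7sf2 at −0.076, Msmo1 at −0.22, Dhcr7 at −0.076, Srebf1 at −0.086, Srebf2 at −0.062, Insig2 at −0.013 (0.27 in the reported fit) and Abcg1 at −0.088. The cause of these changes was not tested. Without a replicate, Npc1 ran from −0.032 to 0.022, Dhcr7 from −0.016 to 0.055, Sqle from −0.013 to 0.095 and Msmo1 from −0.029 to 0.15. WT replicate 3 had the fewest reads.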
